A study of Mus musculus with 50 samples.

Results

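Sim2 and Sim1 (single-minded homologs) encode a pair of closely related bHLH-PAS transcription factors. Their CpGs were taken from the deposited methylation table as every CpG that the authors' promoter or gene body column assigned to either gene. This gave 57 CpGs of 205304 in the table, 22 for Sim2 (ENSMUSG00000062713) and 35 for Sim1 (ENSMUSG00000019913). They fell into 5 Sim2 clusters and 4 Sim1 clusters, of 51038 clusters in all. A cluster is a run of neighbouring genomic CpGs no more than 100 bp apart, as defined by the authors.

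DNA was from the soleus, a slow-twitch muscle of the lower leg, of 12-week-old C57BL/6 male and female mice. All mice were homozygous for a floxed Dnmt3a allele (Dnmt3a flox/flox). Those without Cre served as wild type (WT), and those with a Cre transgene driven by the muscle creatine kinase promoter (mCK-Cre) were the muscle-specific knockouts (mD3AKO). This promoter becomes active late in muscle differentiation and in muscle fibres. The paper proposes that satellite cells and non-muscle cells are the likely source of the Dnmt3a mRNA that remains. The resting groups spent 30 min in a sham treadmill arena, and the other mice ran for 30 min and were killed 10, 30 or 60 min later. The WT groups held 5, 5, 5 and 6 muscles at rest, 10, 30 and 60 min, and the mD3AKO groups held 5, 5, 7 and 6. Methylation was read by reduced representation bisulfite sequencing (RRBS), in which DNA is cut by MspI at CCGG before bisulfite conversion. The comparisons addressed whether methylation at these genes differed between genotypes, after exercise, or in the response to exercise.

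SIM proteins dimerise with ARNT or ARNT2 and bind DNA at short elements with the core ACGTG. SIM1 is needed for the neurons of the paraventricular hypothalamus, and its loss leads to overeating. SIM2 acts mostly as a repressor, lies in the human region studied in Down syndrome, and in the embryonic limb holds back transcription of Myod1, the master gene of muscle determination. DNMT3A is an enzyme that places new methyl groups on CpGs, and CpG-dense gene starts are as a rule kept nearly free of them.

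Sequencing gave 12819404 to 41285655 methylation calls per sample, and each member CpG was covered by 8 to 723 reads in a sample. RRBS carries no RNA signal, so the identity of the tissue was not checked against markers. The 21 measured CpGs of Dnmt3a were covered in mD3AKO at 0.897 to 1.24 times the WT share of calls, which is no check of the floxed exon. The labels number the samples but do not name the mice, so the p-values measure the spread between these samples. The highest correlation between any pair of samples, after the group means were subtracted, was 0.085 over 20531 CpGs, so no library looked like a copy of another. The study had itself named Sim2 as changed on these samples, so the genotype results below are not independent evidence for it.

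The measured CpGs of Sim2 began upstream of the gene. Coordinates are those of the C of each CpG on the plus strand of GRCm38 (mm10), and Sim2 runs in the plus direction from 94084931 on chromosome 16. The windows below carry the clusters the results turn on, with 20 bases on either side of the measured CpGs, which are in capitals. Sequences are from the GRCm38 assembly of RefSeq. The first is the most upstream CpG and the second holds the other 3 upstream CpGs of the promoter cluster.
Sim2 upstream, chr16:94083353-94083394: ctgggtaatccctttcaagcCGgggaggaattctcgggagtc
Sim2 upstream, chr16:94083895-94083984: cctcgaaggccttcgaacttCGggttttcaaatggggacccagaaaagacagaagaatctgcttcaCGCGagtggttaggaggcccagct
The third holds the 6 measured CpGs of the same cluster that lie in intron 1, which are described apart from the upstream ones.
Sim2 intron 1, chr16:94086098-94086269: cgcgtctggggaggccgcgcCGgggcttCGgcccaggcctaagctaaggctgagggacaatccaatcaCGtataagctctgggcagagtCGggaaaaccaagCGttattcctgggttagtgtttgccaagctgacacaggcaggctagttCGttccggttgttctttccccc
The last ones hold both called clusters of intron 2.
Sim2 intron 2, chr16:94094623-94094758: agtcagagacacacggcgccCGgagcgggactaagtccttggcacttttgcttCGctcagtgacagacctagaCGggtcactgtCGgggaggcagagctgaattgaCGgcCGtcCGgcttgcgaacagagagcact
Sim2 intron 2, chr16:94095503-94095557: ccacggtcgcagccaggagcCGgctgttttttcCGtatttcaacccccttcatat
Neighbouring capitals such as the pair CGCG at 94083961 and 94083963 were read on the same fragments and covered by the same 13 to 103 reads, so they are not separate observations of the DNA.

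Methylation of Sim2 was lower in mD3AKO muscle than in WT muscle, upstream of the gene and in intron 2. Of its 5 clusters, 3 passed the edgeR quasi-likelihood test at an adjusted p under 0.05, each of them lower in mD3AKO, against 1.09% of all clusters. The clusters that passed were the promoter cluster and both clusters of intron 2. At an unadjusted p under 0.05 all 5 Sim2 clusters and 2 of the 4 Sim1 clusters were lower, against 8.31% of all clusters. None of the Sim1 clusters passed after adjustment. In bulk muscle, a change in the share of a cell type and a change of methylation within cells cannot be told apart. The median difference over all clusters was -0.46 percentage points, and 62.4% of all clusters had a lower mean in mD3AKO.

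**Figure D1:**
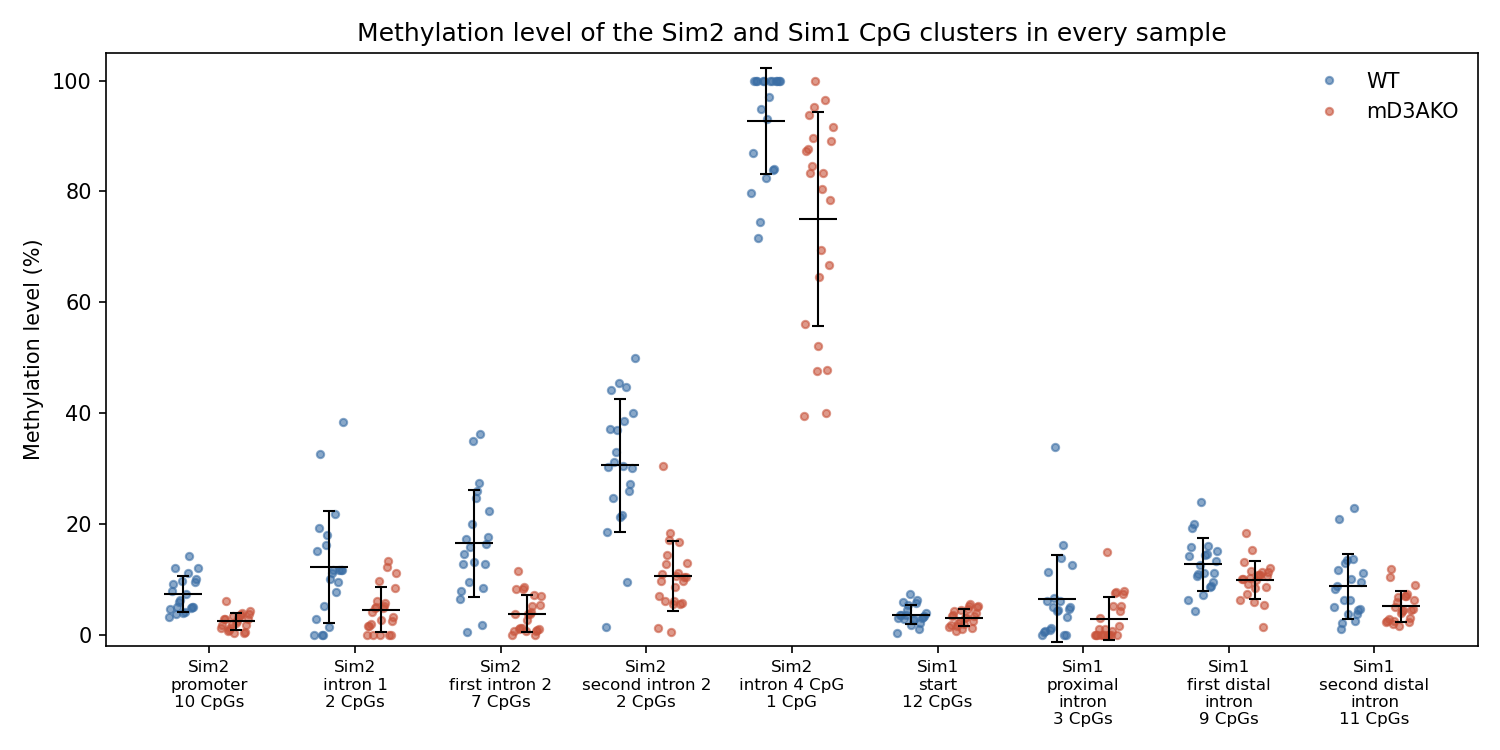
Methylation level (%) of the 5 Sim2 and 4 Sim1 clusters, 1 point per sample, with the mean and SD of WT (n = 21) and mD3AKO (n = 23) as black lines. The mD3AKO points sit lower at the promoter cluster and both intron 2 clusters of Sim2, and overlap the WT points widely at the Sim1 clusters.

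The Sim2 promoter cluster (chr16:94083373-94086248) holds 10 measured CpGs of 248 genomic ones and spans the gene start, from 1558 bp upstream to 1317 bp into the gene. All 10 lie in a CpG island. Its level, the share of methylated among all calls pooled over the 10 CpGs, was 3.16% at the lowest, 6.30% at the median and 14.3% at the highest in WT. In mD3AKO it was 0.278%, 2.47% and 6.10%. Of the 23 mD3AKO samples, 16 lay below every WT sample, and all 23 lay below the WT mean. Of the 21 WT samples, 11 lay above every mD3AKO sample. The means were 7.36% ± 3.27 (SD, n = 21) for WT and 2.38% ± 1.47 (SD, n = 23) for mD3AKO, from 389 to 1364 calls per sample. The fitted log2 ratio of the odds of methylation, mD3AKO over WT, was -1.85 ± 0.32 (SE), with an adjusted p of 0.0006 in edgeR's quasi-likelihood test. A permutation test of the levels within strata of time and sex, two-sided, gave p = 1e-05, the smallest it can give with 100000 resamples. The cluster was covered in mD3AKO at 0.882 times the WT share of calls, and the ratio was 0.977 to 1.21 at the other clusters of either gene. The part of this coverage in the differences was not tested.

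At the promoter cluster, the 6 CpGs of intron 1 had a smaller mean difference than the 4 upstream CpGs. Pooled over these, the level was 17.2% ± 8.12 (SD, n = 21) for WT and 4.51% ± 4.53 (SD, n = 23) for mD3AKO, and 22 of 23 mD3AKO samples lay under the WT mean (permutation test, two-sided, p = 1e-05). WT samples ranged from 3.87% over a median of 15.3% to 33.1%, and mD3AKO samples from 0% over 3.32% to 18.1%. The 6 CpGs of intron 1 had 3.20% ± 4.78 (SD, n = 21) for WT and 1.68% ± 1.73 (SD, n = 23) for mD3AKO, with medians of 1.35% and 1.46% (permutation test, two-sided, p = 0.134). So their medians were in the opposite order from their means, and their WT mean rested on a few samples of up to 15.8%. This split of the cluster was made after the levels were seen. Whether the genotype difference itself differed between the upstream and the intron 1 CpGs was not tested. Levels near 0% in intron 1 leave little room for a loss. When clusters were rebuilt from measured CpGs no more than 100 bp apart, the CpG at 94083373 and the 3 CpGs from 94083915 to 94083963 passed as separate runs (adjusted p = 0.00558 and 0.00815), and the intron 1 run did not (log2 odds ratio 0.10 ± 0.69 SE, adjusted p = 1).

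Among the single CpGs, 5 of the 22 of Sim2 and 0 of the 35 of Sim1 passed the test over all CpGs, against 0.287% of all CpGs called lower. At an unadjusted p under 0.05, 15 of 22 and 4 of 35 were lower, against 4.79%. A quasi-binomial model called 6 CpGs of Sim2 and 0 of Sim1, against 0.578% of all CpGs. The mean was lower in mD3AKO at 21 of 22 Sim2 CpGs and at 29 of 35 Sim1 CpGs, against 54.9% of all CpGs. The median difference was -10.7 percentage points over the Sim2 CpGs and -2.26 over the Sim1 CpGs, beside -0.10 over all CpGs.

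Within the promoter cluster, 94083373 and 94083963 were the CpGs that passed. At 94083373, 1558 bp upstream, WT samples ran from 0% over a median of 17.8% to 63.8% and mD3AKO samples from 0% over 0% to 33.3%. No methylated call was seen there in 12 of 23 mD3AKO samples and in 3 of 21 WT samples. The means were 16.4% ± 14.1 (SD, n = 21) and 4.22% ± 7.93 (SD, n = 23), with an adjusted p of 0.01005 in edgeR. At 94083963 the means were 27.2% ± 18.7 (SD, n = 21) and 7.76% ± 16.4 (SD, n = 23), with an adjusted p of 0.0144 in edgeR. Every WT sample had some methylation there, whereas 13 mD3AKO samples had none and another mD3AKO sample reached 75.0%. Its neighbour 94083961 did not pass (17.8% ± 16.3 and 6.42% ± 16.5, adjusted p = 0.0514 in edgeR), nor did 94083915 (9.67% ± 10.9 and 2.98% ± 4.80, adjusted p = 0.450 in edgeR).

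The intron 1 CpGs of the promoter cluster had a median of 0% in both genotypes, except 94086248 in WT (1.10%). The lowest p among them was 0.200 unadjusted, at 94086248, where the means were 8.63% ± 14.8 (SD, n = 21) for WT and 2.10% ± 3.55 (SD, n = 23) for mD3AKO (edgeR). The highest p-values were those of 94086187 and 94086200, and then that of 94086166. At 94086187 the means were 1.01% and 0.642%, and 94086166 had 3.45% and 3.01%. At 94086200 they were 3.82% ± 12.1 (SD, n = 21) and 0.537% ± 1.05 (SD, n = 23), with no methylated call in 17 WT and 17 mD3AKO samples and 52.2% in 1 WT sample. At 94086126 the mD3AKO mean was the higher one, 5.81% ± 17.8 (SD, n = 23) against 3.85% ± 7.14 (SD, n = 21), and 1 mD3AKO sample reached 84.2% while 16 were at 0%.

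**Figure D2:**
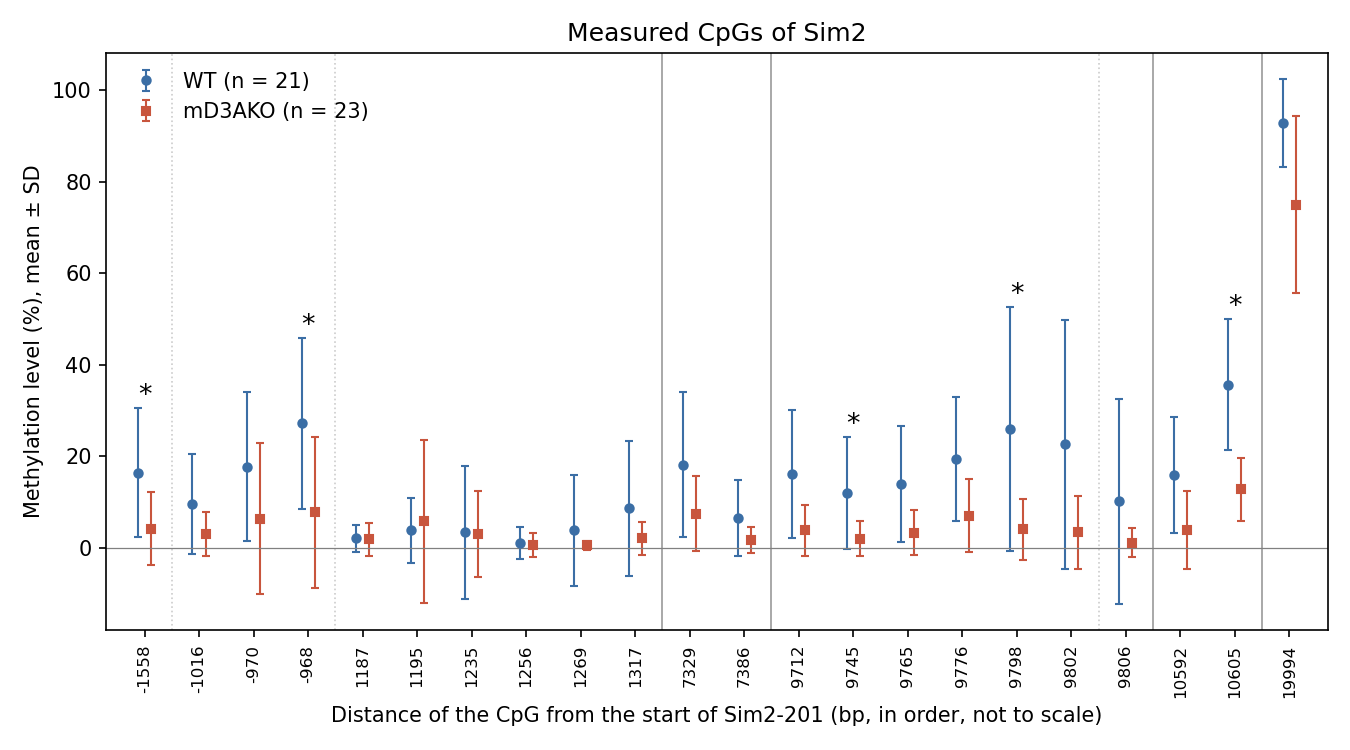
Mean methylation level (%) ± SD of the 22 measured Sim2 CpGs in WT (n = 21) and mD3AKO (n = 23), in order (not to scale) of their distance in bp from the start of Sim2-201. Solid lines part clusters, dotted lines part MspI fragments within a cluster, and asterisks mark the 5 CpGs that passed the test over all CpGs. A dotted line need not part the reads, as the CpGs at 9802 and 9806 bp had nearly the same coverage (15 to 224 and 15 to 223 reads). SD bars that reach below 0 belong to CpGs whose levels are mostly near 0 with a few high samples.

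The first cluster of intron 2 (chr16:94094643-94094737) lies 9712 to 9806 bp inside the gene, in a CpG island, with 7 measured CpGs and 283 to 1670 calls per sample. WT samples ran from 0.485% over a median of 15.9% to 36.2%, and mD3AKO samples from 0% over 3.66% to 11.5%. Of the WT samples, 15 of 21 lay above every mD3AKO sample, whereas 2 of 23 mD3AKO samples lay below every WT sample. The means were 16.5% ± 9.64 (SD, n = 21) and 3.75% ± 3.34 (SD, n = 23), a log2 odds ratio of -2.69 ± 0.54 (SE) with an adjusted p of 0.00358 in edgeR. All 23 mD3AKO samples were below the WT mean (permutation test, two-sided, p = 1e-05). Its 7 CpGs had WT means of 10.2% to 26.1%, and the differences, mD3AKO minus WT, were -22.0 to -9.02 percentage points. Of these, 94094676 (12.1% ± 12.2 and 2.02% ± 3.88) and 94094729 (26.1% ± 26.7 and 4.06% ± 6.66) passed, with adjusted p-values of 0.0211 and 0.0280 in edgeR.

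The second cluster of intron 2 (chr16:94095523-94095536) lies in a CpG island 10592 bp inside the gene and holds 2 measured CpGs of 22 genomic ones. WT samples ran from 1.44% over a median of 30.5% to 50.0% and mD3AKO samples from 0.524% over 10.5% to 30.4%, on 108 to 473 calls. Here 11 of 21 WT samples lay above every mD3AKO sample, and 2 of 23 mD3AKO samples lay below every WT sample. The means were 30.6% ± 12.0 (SD, n = 21) and 10.5% ± 6.32 (SD, n = 23). The log2 odds ratio was -1.97 ± 0.37 (SE), with an adjusted p of 0.00219 in edgeR and a permutation p of 1e-05 (two-sided), and all 23 mD3AKO samples were below the WT mean. Of its CpGs, 94095536 passed, at 73 to 394 reads, with 35.7% ± 14.2 (SD, n = 21) against 12.8% ± 6.87 (SD, n = 23) and an adjusted p of 0.0245 in edgeR. This had the largest mean difference of the 57 CpGs, -22.8 percentage points. At 94095523, with 21 to 129 reads, the means were 15.9% ± 12.6 (SD, n = 21) and 3.88% ± 8.58 (SD, n = 23). It did not pass (adjusted p = 0.107 in edgeR), though its log2 odds ratio was -2.87, against -1.99 at 94095536.

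The remaining Sim2 clusters, in intron 1 and intron 4, did not pass after adjustment in edgeR's quasi-likelihood test. Other tests called them in part. The likelihood ratio test called both, the quasi-binomial model only the intron 1 cluster, and limma on log2 ratios only the intron 4 CpG. In intron 1, at 94092260 and 94092317 and outside any CpG island, the pooled level was 12.2% ± 10.1 (SD, n = 21) for WT and 4.52% ± 4.08 (SD, n = 23) for mD3AKO (adjusted p = 0.237 in edgeR, permutation p = 0.00121, two-sided). Depth was low there, at 26 to 267 calls per sample. The CpG of intron 4 (94104925), also outside an island, was the highly methylated member, with 92.8% ± 9.61 (SD, n = 21) for WT and 75.0% ± 19.3 (SD, n = 23) for mD3AKO. Its WT median was 100% and its mD3AKO median 83.3%, and 9 mD3AKO samples lay below the lowest WT sample at 71.5%. Its log2 odds ratio was -2.42 ± 0.71 (SE), with an adjusted p of 0.0899 in edgeR and a permutation p of 0.00047 (two-sided), and it was covered by 12 to 186 reads.

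Summed as the authors assigned them, the 10 promoter CpGs of Sim2 are the same CpGs as its promoter cluster and gave a log2 odds ratio of -1.86 ± 0.35 (SE), with an adjusted p of 0.00135 in edgeR. Of all promoters, 0.779% were called lower. The 18 gene body CpGs of Sim2, which share the intron 1 block with the promoter, had 17.1% ± 5.75 (SD, n = 21) for WT and 7.63% ± 2.66 (SD, n = 23) for mD3AKO. All 23 mD3AKO samples were below the WT mean, and the log2 odds ratio was -1.32 ± 0.19 (SE), with an adjusted p of 3.43e-05 in edgeR. Of all gene bodies, 1.40% were called lower. The promoter of Sim1 (11 CpGs) had 3.35% ± 1.51 (SD, n = 21) and 3.00% ± 1.54 (SD, n = 23), with an adjusted p of 0.984 in edgeR. Its gene body (35 CpGs) had 7.62% ± 2.21 and 5.64% ± 1.50, and 22 of 23 mD3AKO samples lay under the WT mean. The adjusted p of the Sim1 body was 0.0966 in edgeR, so it did not pass.

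**Figure D3:**
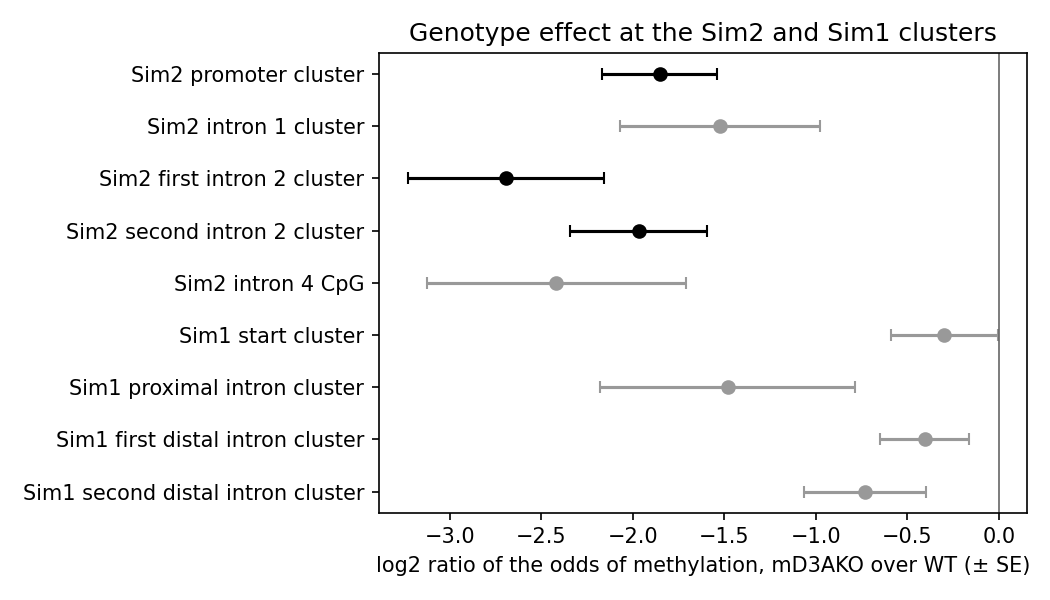
Fitted log2 ratio of the odds of methylation (mD3AKO over WT) ± SE at the 9 clusters, black where the adjusted p was under 0.05 and grey otherwise. The Sim2 clusters lie between -2.69 and -1.52 and the Sim1 clusters between -1.48 and -0.30.

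Sim1 lies on chromosome 10 in the plus direction, with its long transcript Sim1-201 starting at 50895651. Its CpGs were low in both genotypes, with WT means of 0.507% to 22.7% and mD3AKO means of 0.729% to 19.9%. The 12 CpGs around the start (chr10:50894768-50895757), which include the untranslated part of exon 1 and exons of the shorter transcript Sim1-202, had 3.61% ± 1.73 (SD, n = 21) for WT and 3.06% ± 1.49 (SD, n = 23) for mD3AKO, on 944 to 3503 calls. This cluster holds the most CpGs of Sim1. WT samples ran from 0.366% over 3.30% to 7.28% and mD3AKO samples from 0.625% over 3.22% to 5.55%, so the genotypes overlapped almost wholly. The log2 odds ratio was -0.30 ± 0.29 (SE), with an adjusted p of 0.875 in edgeR and a permutation p of 0.269 (two-sided).

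The other Sim1 clusters lie in the first intron of Sim1-201 and had somewhat more methylation. The proximal one (chr10:50897783-50897850, 3 CpGs) had 6.49% ± 7.89 (SD, n = 21) for WT and 2.91% ± 3.94 (SD, n = 23) for mD3AKO, and 10 mD3AKO and 3 WT samples had no methylated call. The first distal one (chr10:50900208-50900551, 9 CpGs) had 12.7% ± 4.78 and 9.91% ± 3.42, and the second (chr10:50900865-50901072, 11 CpGs) 8.70% ± 5.83 and 5.09% ± 2.80. Their log2 odds ratios were -1.48 ± 0.70, -0.41 ± 0.24 and -0.73 ± 0.33 (SE), and their adjusted p-values in edgeR were 0.483, 0.664 and 0.456. Permutation tests of the levels gave unadjusted p-values of 0.0481, 0.018 and 0.00719 (two-sided), in the same order. The second distal cluster is shown for comparison with Sim2, with its 11 measured CpGs in capitals.
Sim1 intron 1, chr10:50900845-50901093: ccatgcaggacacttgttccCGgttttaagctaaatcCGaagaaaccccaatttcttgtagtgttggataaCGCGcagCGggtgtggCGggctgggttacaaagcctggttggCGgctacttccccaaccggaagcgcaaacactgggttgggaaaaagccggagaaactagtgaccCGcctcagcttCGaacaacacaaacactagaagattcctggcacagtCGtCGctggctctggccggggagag
Of its CpGs, 50900932 had the largest drop in the mean, from 15.5% ± 10.3 (SD, n = 21) to 8.09% ± 6.90 (SD, n = 23), and did not pass (adjusted p = 0.714 in edgeR). Whether the genotype difference itself differed between Sim2 and Sim1 was not tested.

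**Figure D4:**
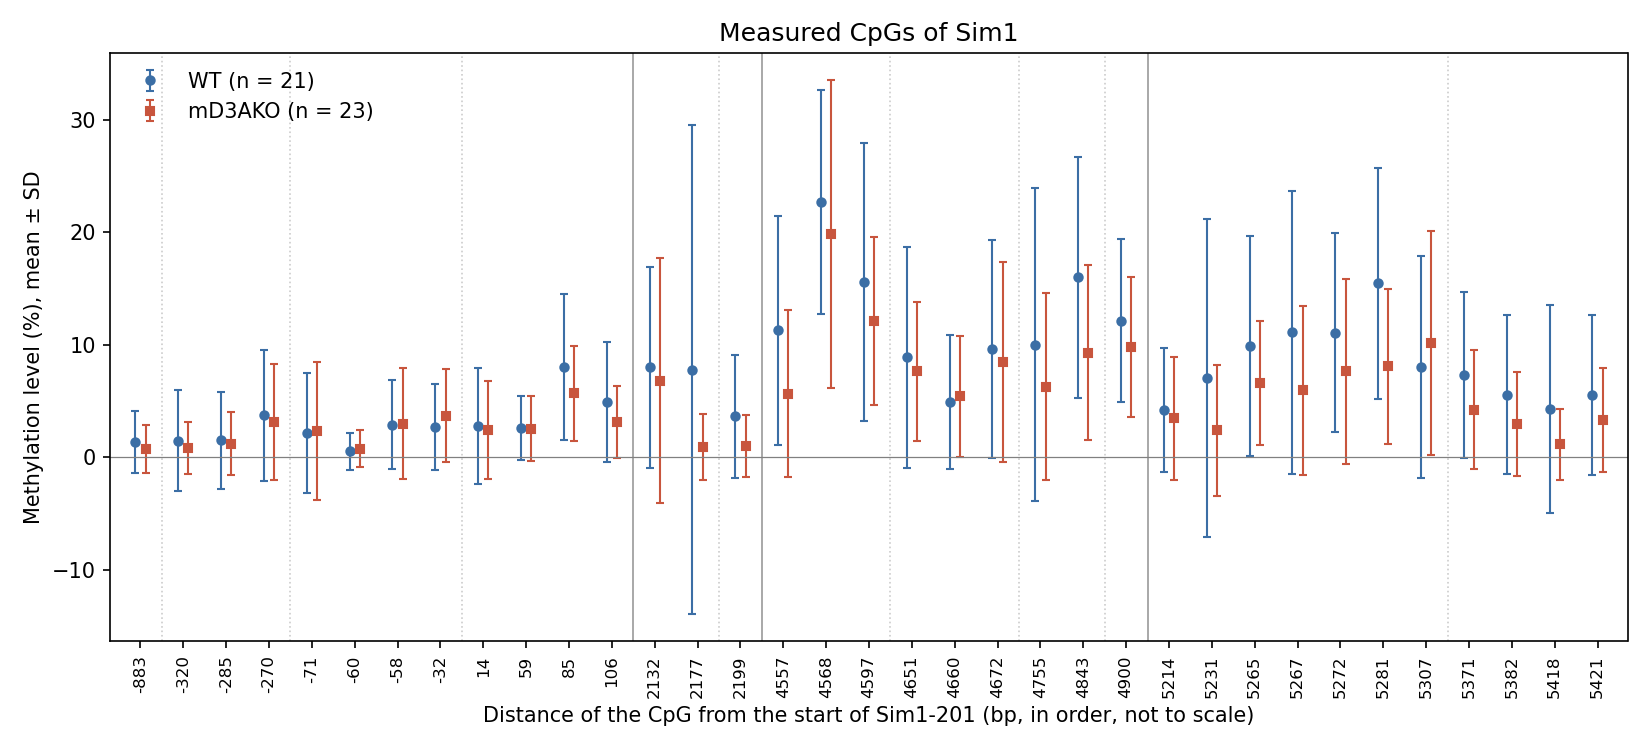
Mean methylation level (%) ± SD of the 35 measured Sim1 CpGs in WT (n = 21) and mD3AKO (n = 23), in order (not to scale) of their distance in bp from the start of Sim1-201. Solid lines part clusters and dotted lines part MspI fragments within a cluster. A dotted line need not part the reads, as the CpGs at 2177 and 2199 bp had nearly the same coverage (11 to 198 and 11 to 199 reads). The bars of the genotypes overlap at every CpG, and no CpG passed the test over all CpGs.

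At each single time, the mD3AKO mean was below the WT mean in 19 of 20 contrasts over the 5 Sim2 clusters. The exception was the intron 4 CpG at 10 min, with 88.2% in WT and 90.6% in mD3AKO (exact permutation test, two-sided, p = 0.730). The intron 1 cluster at 10 min differed by -2.72 percentage points (exact permutation test, two-sided, p = 0.452). The 3 clusters that passed are described here. At the promoter cluster the WT samples had 3.16%, 4.59%, 7.85%, 9.16% and 12.1% at rest, and the mD3AKO samples 1.17%, 1.65%, 2.80%, 2.91% and 6.10%. These groups overlapped. At 10 min the WT samples had 3.79%, 4.97%, 5.82%, 6.30% and 9.71%, and the mD3AKO samples 0.642%, 0.807%, 1.24%, 1.97% and 3.45%. At 30 min WT had 3.97%, 4.14%, 7.34%, 11.2% and 14.3%, and mD3AKO ran from 0.343% over 3.01% to 3.84%. At 60 min WT ran from 4.78% over 7.21% to 12.1%, and mD3AKO from 0.278% over 2.29% to 4.24%. The genotypes did not overlap at 10, 30 and 60 min, with exact two-sided permutation p-values of 0.00794, 0.00253 and 0.00217, and 0.0476 at rest, none of them adjusted. In the fit across all clusters, none of the genotype contrasts at a single time passed for a Sim2 cluster (20 contrasts, 14 at an unadjusted p under 0.05, lowest adjusted p = 0.439 in edgeR). The shares of all clusters at single times are not given here. So the counts of 14 and 19 of 20 describe Sim2 without setting it apart from other clusters.

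In the first intron 2 cluster the WT samples had 6.37%, 7.94%, 12.7%, 14.6% and 17.3% at rest and 13.1%, 24.7%, 25.9%, 27.3% and 36.2% at 30 min. The mD3AKO samples had 0%, 0.69%, 3.66%, 8.22% and 11.5% at rest, and ran from 0.614% over 3.77% to 7.15% at 30 min. The genotypes overlapped at rest and were separate at 30 min. At 10 min WT had 0.485%, 9.59%, 15.9%, 19.9% and 35.0% and mD3AKO 1.04%, 1.11%, 1.14%, 8.17% and 8.55%. At 60 min WT ran from 1.65% over 14.6% to 22.4%, and mD3AKO from 0% over 0.971% to 6.99%. One WT sample at each of these last times lay among or below the mD3AKO samples.

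The WT mean of the first intron 2 cluster was 13.7 percentage points higher at 30 min than at rest (exact permutation test, two-sided, unadjusted p = 0.0238, n = 5 and 5). This was 1 of 30 contrasts of a time against rest over the Sim2 clusters, and the only one with an exact p under 0.05. Of the 24 over the Sim1 clusters, 1 had an exact p under 0.05. Its adjusted p in the edgeR fit was 1. At the second intron 2 cluster, WT samples had 1.44%, 18.5%, 30.2%, 37.1% and 44.2% at rest, and mD3AKO samples 1.28%, 7.02%, 9.59%, 11.0% and 30.4%. So the lowest WT sample at rest was close to the lowest mD3AKO one. At 10 min WT had 24.6%, 31.2%, 33.0%, 37.0% and 45.4%, above every mD3AKO sample (6.11%, 12.7%, 14.3%, 17.1% and 18.3%). The genotypes were also separate at 30 min, with WT at 21.3% or more and mD3AKO at 16.7% or less, and overlapped at 60 min through 1 WT sample at 9.55%.

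**Figure D5:**
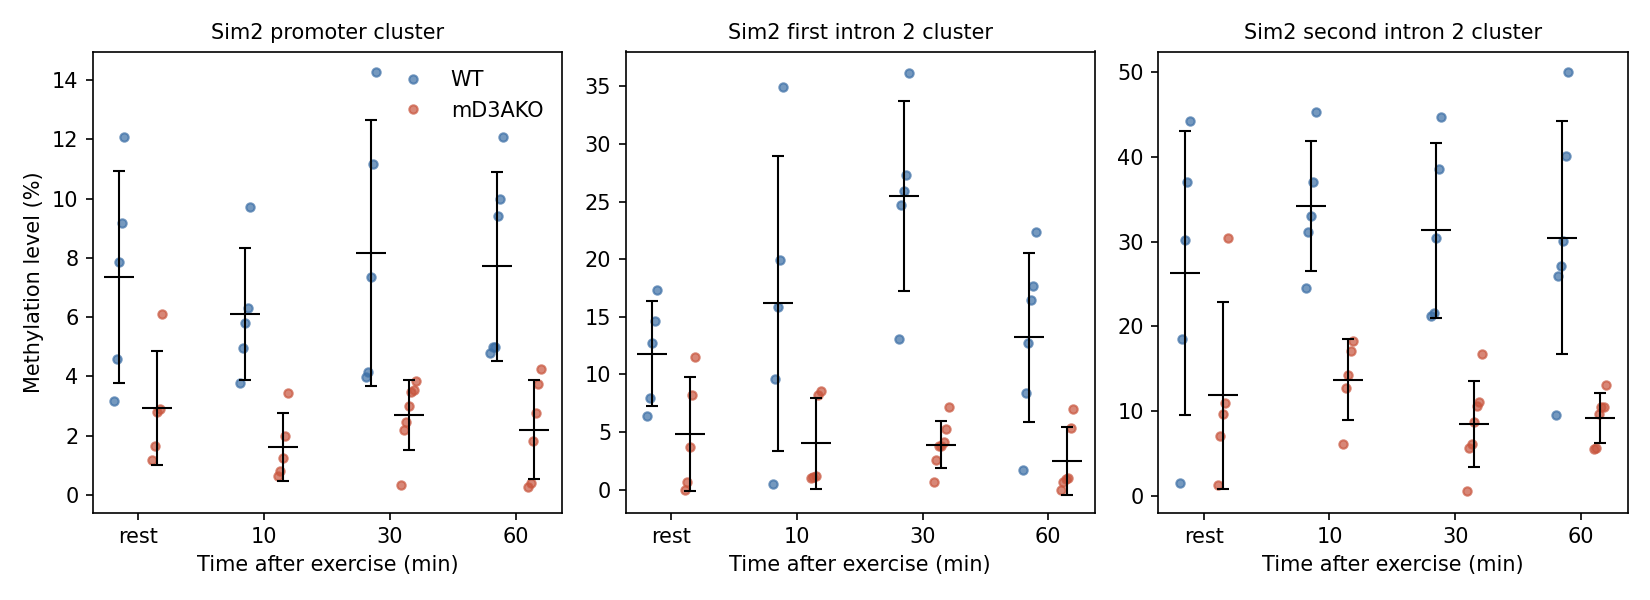
Methylation level (%) of the 3 Sim2 clusters that passed, by time after exercise (min) and genotype, 1 point per sample with the mean ± SD of the 5 to 7 samples of each group. The axes differ between panels. The mD3AKO means lie below the WT means at every time in each panel.

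No effect of time on these genes was detected. None of the 9 clusters passed for time or for the interaction of genotype and time in edgeR, against 0% of all clusters in each case, and no adjusted p was below 1. At an unadjusted p under 0.05 the counts were also 0 of 9 for both tests, against 2.86% and 2.74% of all clusters. The likelihood ratio test and the quasi-binomial model called 0 of 9 as well. Of the 57 single CpGs, 3 had an unadjusted p under 0.05 for time and 3 for the interaction in edgeR, 94083373 among both. None passed after adjustment, and the shares of all CpGs for these tests are not given here. Nor did sex pass at any of the 9 clusters (0% of all clusters called, 4.47% at an unadjusted p under 0.05, and 0 of the 9 among them). The promoter cluster had 5.34% ± 3.93 (SD) in females and 4.23% ± 3.10 (SD) in males, and its genotype by sex term had an unadjusted p of 0.740 in edgeR.

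Samples numbered 1 to 25 in the labels were all at rest or 60 min and those numbered 26 to 50 all at 10 or 30 min. Within these sets the difference at the promoter cluster was -5.02 and -4.90 percentage points (permutation test, two-sided, p = 0.00016 and 4e-05). At the first intron 2 cluster it was -9.01 and -16.9 (p = 0.00056 and 1e-04), and at the second -18.2 and -22.1 (p = 0.00214 and 2e-05, permutation tests, two-sided). Whether the sets differ for a reason other than time cannot be told apart from time.

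After each group's mean was subtracted, the correlations among the 5 Sim2 clusters ran from -0.14 to 0.29. Pearson's r over the 44 samples was -0.11 and 0.09 between the promoter cluster and the first and second intron 2 clusters, and -0.14 between the latter. The intron 1 cluster had the higher values, 0.28 with the first and 0.29 with the second intron 2 cluster. These samples share library and depth across the clusters, and no p is given. The promoter cluster had r = 0.53 with the second distal cluster of Sim1. Of 13771 clusters assigned to a gene, with 3 or more CpGs and 50 or more calls in every sample, the closest to the promoter cluster by this measure were those of Rprml (r = 0.60), Zfp472 (r = 0.59), Pax7 (r = 0.58), Sema6a (r = 0.57) and Iqsec1 (r = 0.56). The Pax7 cluster had 14.5% in WT and 6.46% in mD3AKO, with an adjusted p of 0.229 in edgeR, and the others had 0.684 to 0.927. The paper reports significantly lower methylation at a Pax7 region in mD3AKO soleus, EDL and quadriceps. Whether this cluster belongs to that region was not checked.

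The counts for related genes are read against the shares over all clusters, 1.09% called lower and 8.31% lower at an unadjusted p under 0.05. The unadjusted counts of the lists hold clusters of either direction. In the bHLH-PAS family, 18 of 20 genes were measured, in 60 clusters besides those of Sim2 and Sim1, and 0 of these passed in edgeR (5 at an unadjusted p under 0.05). Their median difference was -0.54 percentage points. Among partners, regulators and targets of SIM proteins, which include Myod1 and Shh, 8 of 10 genes and 15 clusters were measured, 0 passed (1 at an unadjusted p under 0.05) and the median difference was -0.04. Arnt and Arnt2, the dimer partners, were the genes of both lists that were not measured. Muscle fibre genes had 0 of 19 clusters that passed in edgeR (2 at an unadjusted p under 0.05, median -0.22), and markers of other cells of muscle 0 of 19 (1 at an unadjusted p under 0.05, median -0.17). Of the latter list only 6 of 12 genes were measured.

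Of the 14 coding genes that start within 500 kb of Sim2, 12 were measured, in 41 clusters. Their median difference was -2.08 percentage points, and 78.0% had a lower mean in mD3AKO, beside 62.4% of all clusters. At an unadjusted p under 0.05 there were 11 of 41, and 1 cluster passed in edgeR. It belonged to Ripply3, which encodes a transcriptional corepressor, on chromosome 16 at 94329420 to 94329474. Its level was 33.1% ± 13.0 (SD, n = 21) for WT and 15.2% ± 6.52 (SD, n = 23) for mD3AKO, a log2 odds ratio of -1.52 ± 0.29 (SE) with an adjusted p of 0.00238 in edgeR. These neighbours were more methylated than Sim2, with a median WT level of 70.3%. Near Sim1, 1 coding gene with 2 clusters was measured, and 0 passed in edgeR (0 at an unadjusted p under 0.05).

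The sequence ACGTG, searched on both strands over the CpG it contains, held 1 measured CpG of Sim2 (94086166, in the intron 1 block) and 1 of Sim1 (50895710, in exon 1), or 2 of 57. Of all measured CpGs, 1.64% lay in this sequence. Neither of these CpGs passed for genotype, so the CpGs of Sim2 that passed lie outside it. A match is a description of the letters only.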

How the data were processed

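The authors trimmed single-end RRBS reads with Trim Galore 0.4.0 and cutadapt 1.9.1, aligned them to mm10 (GRCm38) with Bismark 0.18.1 and added both strands of each CpG. A CpG was retained if every sample covered it 8 times or more, and poorly sequenced samples and the sex chromosomes were dropped. The deposited values are raw counts, without normalization, of calls read as methylated or as unmethylated. PCR copies are not told apart, so calls overstate the independent molecules. Of 50 samples, 44 had counts here. Groups came from the labels. Positions here are those of the C, whereas 16.5% of the deposited ones named the G.

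Counts were summed per CpG, cluster, promoter and gene body, as the authors assigned them, and fitted over the whole table in edgeR 4.0.16, with 1 term for each sample and 1 methylated fraction per group (8 groups). The quasi-likelihood F test used the common dispersion, with Benjamini-Hochberg adjustment over all features and 0.05 as threshold. For single CpGs it came from every 10th CpG. The SE given with a log2 odds ratio was calculated back from the test, as the absolute ratio over the square root of F. Samples were left out in turn on every 5th cluster and the clusters of both genes. The scripts were checked on simulated data. CpG islands were 200 bp windows in which the GC fraction reached 0.5 and observed over expected CpG reached 0.6. Exons are from GENCODE M21. Named were all clusters and CpGs of both genes by count, in full the promoter cluster of Sim2, the clusters that passed and the cluster of each gene with the most CpGs, in the promoter cluster the 6 CpGs of lowest and the 3 of highest p, the 5 clusters most alike, and list members that passed. Alternatives were a likelihood ratio test, a quasi-binomial model (pseudocount 0.5), limma 3.58.1 on log2 ratios (pseudocount 1), a coverage minimum of 20, gaps of 50 and 200 bp, subsets of samples, and sex as a term. The members and lists were chosen with earlier results of these data known.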

Additional observations from a re-analysis of the deposited data

Results flagged for a closer look

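Of 72 sets of samples (9 clusters in 8 groups), 3 held a sample whose distance to its nearest neighbour was above Dixon's 95% critical value. Chance alone gives about 1 in 20. At the Sim2 intron 1 cluster, 1 WT sample at 60 min had 38.4%, while the other 5 had a median of 11.6%, on 73 calls. At the Sim1 proximal intron cluster, 1 WT sample at 10 min had 33.9% against a median of 3.06% of the others (56 calls). In the same cluster 1 mD3AKO sample at 10 min had 14.9% against a median of 0% (74 calls). None of the Sim2 clusters that passed for genotype held such a sample.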

How the results depend on the processing

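No paired analysis was possible because each sample number in the labels occurs once, so that groups share no replicate numbers. The count of Sim2 and Sim1 clusters called for genotype, 3 in the report, was 5 with the likelihood ratio test. It was 4 with the quasi-binomial model and with limma, and 0 with rest only, with samples 1 to 25 or with samples 26 to 50. Over all clusters the likelihood ratio test called 1414, limma 895 and these subsets 0, 25 and 33, against 557 in the main test with all samples. At the Sim2 promoter cluster the log2 odds ratio was -1.34 at a coverage minimum of 20 (adjusted p = 0.355), where 3 of its 10 CpGs are left, 1 of them upstream. It was -1.45 at rest only (1), -1.82 in samples 1 to 25 (0.249) and -1.89 in samples 26 to 50 (0.104). With gaps of 50 bp and with clusters rebuilt from measured CpGs, its piece with the most CpGs, the intron 1 block, had 0.10 in both cases (adjusted p = 1). This turns the sign of the estimate, but it was near 0 (0.10 ± 0.69 SE in the rebuilt clusters). The mean level of the block was still lower in mD3AKO, 1.68% against 3.20% in WT. The upstream runs of the promoter cluster passed with clusters rebuilt from measured CpGs, as the report gives. That setting and the levels within the sets of sample numbers were added after the data were seen. At a coverage minimum of 20 the count of called promoters fell from 1 to 0, and with the quasi-binomial model that of gene bodies rose from 1 to 2, with that of Sim1 (adjusted p = 0.0415). The shares of all promoters and gene bodies called under these settings are not given here. Over all clusters the quasi-binomial model called 1367 of 51038, and the coverage minimum of 20 gave 428 of 28165. In samples 1 to 25 the Sim1 start cluster turned to a log2 odds ratio of 0.13 and a level difference of 0.197 percentage points. Leaving out each sample gave 3 to 4 called clusters of these genes. Of the 10215 clusters fitted there, 107 to 139 were called, against 126 with all samples. The promoter cluster then had a log2 odds ratio of -1.94 to -1.75 and a level difference of -5.19 to -4.63 percentage points. The fourth call was the Sim2 intron 4 CpG without WT rest sample 13 (adjusted p = 0.0384). Leaving out single samples changed 1 of 704 other values. For clusters other than the promoter cluster, 96 of 117 values under the other settings kept their direction and side of the threshold, 14 lost the threshold, 5 gained it and 2 turned. With gaps of 200 bp, the intron 1 cluster and both intron 2 clusters of Sim2 formed 1 cluster (log2 odds ratio -2.11, adjusted p = 9.25e-06 in edgeR). That value counts once for each of them, and it gave the intron 1 cluster 1 of the 5 gains. Both distal intron clusters of Sim1 were joined in the same way. The cause of the other changes was not tested, except that fewer samples or CpGs enter in the subsets. Calls at the promoter cluster rest on 13 to 185 reads per upstream CpG and sample, which limits single CpGs.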
